A study of Homo sapiens with 2 samples.

Results

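The untreated A375 cells richest in RNA of late G2 and mitosis were examined against the other untreated cells of the same library. A375 is an established human melanoma line that carries an activated BRAF. Members were parental barcodes with at least 5000 UMIs (distinct RNA molecules counted) and at most 20% of UMIs from mitochondrially encoded genes. They were chosen by a measured value, the summed UMIs of 10 genes, PLK1, CCNB1, CDC20, AURKA, KIF20A, PIF1, PSRC1, FAM83D, CCNF and KPNA2, per 10000 UMIs of the cell, of which the top 10% were taken. This gave 910 of 9094 eligible parental barcodes, out of 10751 parental barcodes and 17895 barcodes in the series.

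The study holds 2 libraries made with a 10x Chromium kit that reads transcript ends. The parental cells were untreated, in serum-containing culture medium, and the labels do not say whether they received interleukin 2. The CTL persister cells are A375 cells that outlived 15 days with cytotoxic T lymphocytes (CTLs) against the tumour antigen NY-ESO-1, which were renewed every 3 days, and their medium held interleukin 2 at 7.5 ng/mL. Each group is 1 library of 1 cell line, so no difference below has a replicate check, no test was run, and intervals cover counting error only.

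A cell that has copied its DNA builds up cyclin B, which activates the kinase CDK1 and drives entry into mitosis. AURKA and PLK1 mature the centrosomes and shape the spindle, the checkpoint kinases hold anaphase until every chromosome is attached, and the anaphase-promoting complex with CDC20 then marks cyclin B and securin for destruction. Genes for these proteins are transcribed late in the cycle, whereas replication-dependent histone genes, the E cyclins and the replication factors are transcribed around S phase. The RNA score does not tell late G2 from mitosis, and it is a continuous measure cut at one level rather than a cell type.

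The score had no gap at the cutoff. The lowest member scored 24.0168 and the highest eligible cell left out scored 24.0148 per 10000 UMIs, with a median of 27.9 among members and 8.92 among the 8184 other cells. Within 10% of the cutoff lay 742 cells, 316 of them members. Members had a median of 26 UMIs of the 10 genes (lowest 13) and 8 of the 10 genes detected (lowest 3), against 7 UMIs and 4 genes in the other cells. All 10 were detected in 47 members, and 221 other cells had no UMI of any of them.

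**Figure D1:**
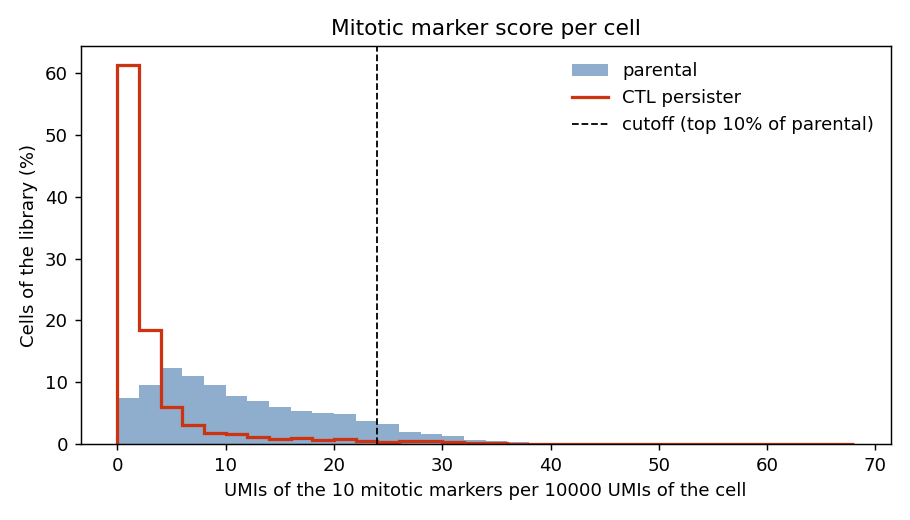
Share of eligible cells of each library (y, percent) by score (x, UMIs of the 10 marker genes per 10000 UMIs of the cell), with the cutoff as a dashed line. Parental scores run without a gap through the cutoff, and most persister cells lie in the lowest bins, with 2.64% past it.

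Because the 10 genes chose the cells, their levels are a description. Levels are counts per 1000000 UMIs (CPM) of the summed cells. AURKA, the kinase of centrosomes and spindle poles (chromosome 20, 56369389 to 56392337), was at 491.2 CPM in members and 146.3 in other cells, and CCNB1, cyclin B1, at 791.0 and 273.3. PLK1, the polo-like kinase of mitotic entry and exit, was at 248.5 and 91.8 CPM. KPNA2, an importin alpha, was at 535.7 and 197.5 CPM, and CDC20, the activator of the anaphase-promoting complex, at 340.7 and 166.9. The ratio ran from 2.04 for CDC20 to 3.36 for AURKA. When each gene in turn was left out of the score and cells were ranked on the remaining 9, the ratio between the top 10% and the rest was 1.61 (95% interval 1.54 to 1.68) for CDC20, 2.19 (2.08 to 2.31) for PLK1 and 2.53 (2.44 to 2.63) for AURKA. These cells shared from 78.0 to 95.8% of the members. CCNB1 alone gave 27.5% of the members' UMIs of the 10 genes, and the ranking without it kept the fewest of them (78.0%).

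Members were somewhat deeper and close to the others in RNA quality. The median was 9177 UMIs per member and 8025.5 per other cell, while the 95th percentiles were 12686.5 and 16731. At an equal 5000 UMIs per cell, a member showed a median of 2053 genes and another cell 2027. The median share of mitochondrially encoded UMIs was 5.57 and 5.94%, and that of ribosomal protein UMIs 22.4 and 22.9%. Over 5 equal groups of eligible cells by rising depth, members made up 7.20, 5.22, 9.90, 17.4 and 10.3%, and what depth adds to membership was not tested. The libraries share 38 barcodes, of which 1 is a member.

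Most markers of late G2 and mitosis that the rule did not use were higher too. They were chosen with earlier results of these data known and rise with the score that chose the cells. They thus describe the members, are not separate support for the label, and do not tell late G2 from mitosis. Of 15 mitotic markers outside the rule, 13 were at least 1.5-fold higher in members and their summed level was 6616 against 3208 CPM. At 5000 UMIs per cell, a member held a median of 33 UMIs of this list (5th to 95th percentile 19 to 48) and another cell 13 (3 to 33). Of the members, 47.1% (exact Clopper-Pearson interval 43.9 to 50.4%) lay above the 95th percentile of the others, so the distributions overlap. The 9 melanoma markers measured held none at 1.5-fold, and 5 of them lay above 0. SOX10, the neural crest factor of melanoma, was at 100.6 CPM in members and 99.2 in other cells. Smaller differences went both ways, with S100B at 35.4 against 48.4 CPM, S100A1 at 41.2 against 52.4 and PRAME at 50.4 against 41.8. RNA of other cell types was scarce: 17 T cell markers summed to 3.12 and 4.24 CPM with 14 of them undetected in members, 6 markers of other blood cells to 9.47 and 11.3, and 5 of fibroblasts or endothelium to 2.04 and 2.36.

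Outside the 10 genes, 7491 genes were measured, meaning at 10 CPM or more over all eligible parental cells. On the log2(CPM + 1) scale, which understates low genes, 102 of them (1.36%) were at least 1.5-fold higher in members and 35 (0.467%) at least 1.5-fold lower. The median difference over all measured genes was 0.02, with the 5th percentile at -0.25 and the 95th at 0.32. The difference was at least 2-fold for 30 higher and 17 lower genes. Of the higher genes 67 belong to the gene lists below, and of the 35 lower genes 13 encode histones. All these genes come from the cells that the score chose, so counts and ratios describe how the transcriptome is arranged along that score.

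**Figure D2:**
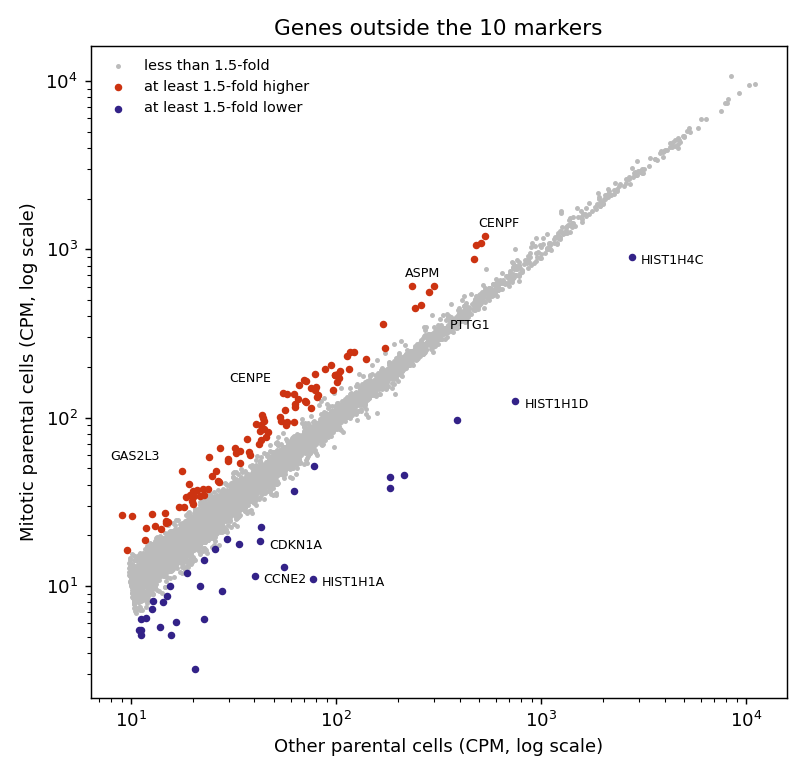
CPM of each of 7491 measured genes in the other parental cells (x, log scale) and in the mitotic cells (y, log scale), coloured at 1.5-fold or more. The red points include ASPM and GAS2L3 and reach up to CENPF at 1199.5 CPM in members, below the most expressed genes. The histone genes HIST1H4C, HIST1H1D and HIST1H1A fall below the diagonal.

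Regulators of mitotic entry were higher in members. Of 21 measured genes of this list, 11 were at least 1.5-fold higher. None was lower by that fold, and the median log2 difference was 0.72. BORA, which lets AURKA activate PLK1 (chromosome 13, 72727749 to 72756198), was at 26.6 against 9.06 CPM, a ratio of 2.94 (2.51 to 3.42). CDK1 was at 244.6 against 122.9 CPM, 1.99 (1.90 to 2.09). Among its cyclin partners, CCNB2 was at 120.6 against 63.3 CPM, 1.90 (1.78 to 2.04), and CCNA2, the cyclin of S phase and G2, at 133.1 against 80.6, 1.65 (1.55 to 1.76). Both counting intervals lie above 1.5. NEK2, a kinase that splits the centrosomes, was at 58.3 against 24.0 CPM. GTSE1, a G2 protein on microtubules, was at 232.0 against 113.1. WEE1 and CDC25C, the kinase and the phosphatase that act against each other on CDK1, were both higher, at 37.3 against 21.1 and 26.7 against 12.6 CPM.

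Kinetochore, checkpoint and passenger proteins, which join chromosomes to microtubules and watch the attachment, differed to unequal degrees. In the kinetochore and centromere list 8 of 35 measured genes were higher, 0 lower and 27 inside 1.5-fold, and the list's median was 0.21. CENPE, a kinesin that carries chromosomes to the metaphase plate, was at 140.2 against 55.4 CPM, 2.53 (2.37 to 2.70). CENPF, a large kinetochore protein that accumulates in G2, was at 1199.5 against 533.7, 2.25 (2.20 to 2.30). CENPA, the histone H3 variant of centromeres, was at 99.4 against 43.8. CENPA is thus higher where the bulk histone genes below are lower. Of 7 measured checkpoint genes 3 were higher, TTK (104.3 against 43.5 CPM), BUB1 (90.6 against 43.2) and BUB1B (111.4 against 56.7), all kinases or kinase-like proteins of the checkpoint. Of 6 passenger complex genes and their partners 5 were higher, with a median of 0.84. They include CDCA8, or borealin, at 166.8 against 70.03 CPM, INCENP at 95.4 against 44.7, and SGO2, which protects centromeric cohesin, at 139.2 against 62.1.

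Motors and spindle proteins were higher in large part. Of 14 mitotic kinesins 9 were higher and 0 lower (median 0.85). KIF14, which acts at the midbody, was at 138.7 against 57.6 CPM, and KIF18A, which dampens chromosome movement, at 65.9 against 27.2. KIF2C, a microtubule depolymerase at centromeres, was at 182.2 against 79.3, and KIF23, a motor of the central spindle, at 164.5 against 71.3. Of 28 spindle and centrosome genes 13 were higher and 0 lower (median 0.53). ASPM, a spindle pole protein (chromosome 1, 197084128 to 197146694), was at 609.4 against 234.8 CPM, 2.60 (2.51 to 2.68). DLGAP5, which stabilises kinetochore fibres, was at 204.9 against 94.9. The tubulins that these proteins act on differed less: 0 of 9 reached 1.5-fold, with TUBA1C at 769.0 against 538.0 CPM, 1.43 (1.39 to 1.47), and TUBB4B at 1007.7 against 746.1.

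Cytokinesis genes followed the spindle genes. Of 16 measured, 7 were higher and 0 lower (median 0.37). ANLN, which anchors the contractile ring, was at 183.1 against 102.3 CPM, and RACGAP1, the partner of KIF23 in the central spindle, at 85.8 against 44.5. GAS2L3, a linker of actin and microtubules found at the midbody, had one of the larger ratios outside the lists, 48.2 against 17.8 CPM, 2.71 (2.41 to 3.03). DEPDC1 was at 155.9 against 66.1 CPM.

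**Figure D3:**
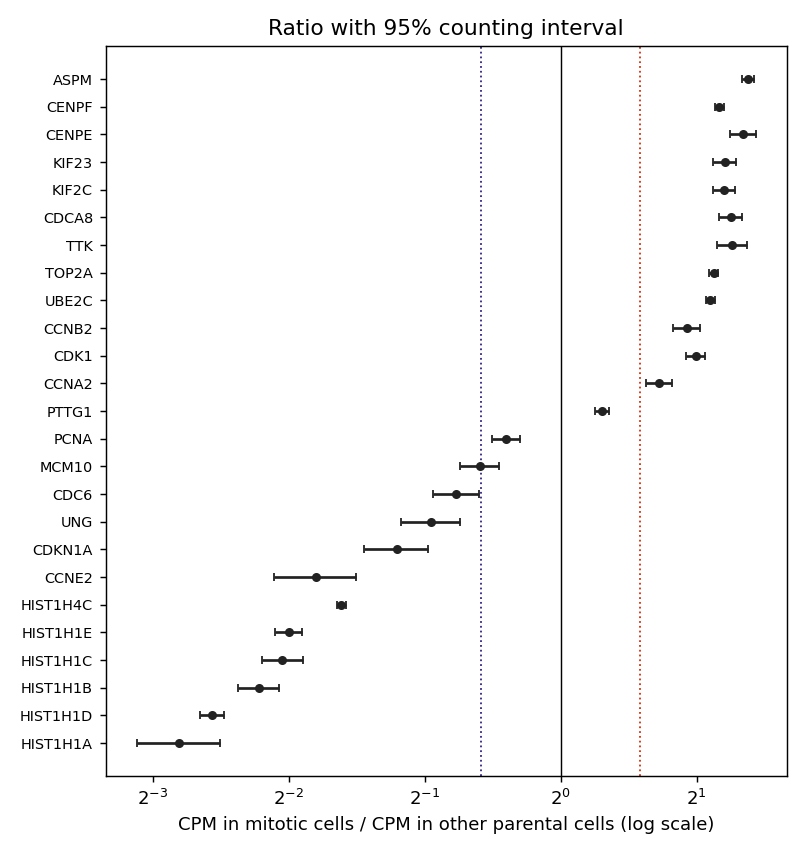
Ratio of CPM in the mitotic cells to CPM in the other parental cells (x, log scale) for 25 genes, with the 95% counting interval as bars and 1.5-fold in either direction as dotted lines. Spindle and kinetochore genes such as ASPM (2.60) lie to the right, PTTG1 (1.24) stays inside the dotted lines, and HIST1H1A (6.997-fold lower) lies farthest to the left of the genes plotted.

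The machinery of anaphase showed a split between the complex and its partners. None of 13 subunits of the anaphase-promoting complex reached 1.5-fold in either direction, and their median of 0.01 lies at that of all genes (0.02). The largest difference in that list was CDC27, at 68.6 against 47.9 CPM, 1.43 (1.31 to 1.57). Of 13 activators, ubiquitin-conjugating enzymes, inhibitors and substrates 5 were higher. UBE2C, the conjugating enzyme of the complex, was at 1089.4 against 508.2 CPM, 2.14 (2.10 to 2.19), and FZR1, the activator used late in mitosis and in G1, at 27.1 against 14.6. PTTG1, or securin, the inhibitor of separase, was at 408.7 against 330.5 CPM, 1.24 (1.19 to 1.28), below the fold used.

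Chromosome proteins were higher in part. TOP2A, the topoisomerase that untangles sister chromatids, was at 1056.6 against 483.6 CPM, 2.19 (2.13 to 2.24). MKI67, which coats mitotic chromosomes, was at 559.8 against 283.3, and HMGB2 at 466.3 against 259.5. These 3 are the genes at 1.5-fold among 16 of that list. Of 8 condensin genes only NCAPG reached it (162.8 against 100.8 CPM), while SMC4 was at 274.5 against 191.7. NCAPG overlaps LCORL, which was also higher (32.3 against 19.9 CPM), and reads of overlapping genes may not be separable. Of 13 cohesin genes and regulators 1 was higher, CDCA2 at 91.2 against 40.6 CPM. CDCA2 targets a phosphatase to chromatin, and the cohesin subunit RAD21 was at 286.9 against 207.0, inside 1.5-fold. Of 34 nuclear envelope, import and pore genes 1 was higher, LBR, the lamin B receptor, at 137.4 against 81.9 CPM, and LMNB1 was at 150.8 against 105.4. Over all measured genes 1.36% were higher by that fold, so 1 gene in lists of this length says little about the list.

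Promoters of the genes that move together are shown because late cell cycle promoters are known for CCAAT boxes, bound by NF-Y, and for the cell cycle genes homology region, whose core is TTTGAA. The sequences are the 150 bases before the RefSeq start on GRCh38.p14, written in the direction of transcription, with CCAAT and TTTGAA in capitals as read on either strand (ATTGG and TTCAAA are the reverse forms). These 6 were chosen after the positions of the letters were seen, and NEK2 is shown as a higher gene with no TTTGAA there. PLK1 and PIF1 are among the 10 marker genes that chose the cells and are not counted among the higher genes.
PLK1 (chr16:23678739-23678888, plus strand): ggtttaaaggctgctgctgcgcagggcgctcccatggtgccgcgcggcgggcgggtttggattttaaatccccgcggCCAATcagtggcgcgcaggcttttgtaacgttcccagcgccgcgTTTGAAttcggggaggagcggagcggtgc
CCNB2 (chr15:59104996-59105145, plus strand): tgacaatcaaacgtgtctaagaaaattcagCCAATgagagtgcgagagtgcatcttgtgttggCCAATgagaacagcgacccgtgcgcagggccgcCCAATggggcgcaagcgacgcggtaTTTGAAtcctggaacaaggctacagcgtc
PIF1 (chr15:64825648-64825797, minus strand): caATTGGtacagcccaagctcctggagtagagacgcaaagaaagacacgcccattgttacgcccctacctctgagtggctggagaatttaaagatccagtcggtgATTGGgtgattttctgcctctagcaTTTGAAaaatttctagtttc
CDCA8 (chr1:37692366-37692515, plus strand): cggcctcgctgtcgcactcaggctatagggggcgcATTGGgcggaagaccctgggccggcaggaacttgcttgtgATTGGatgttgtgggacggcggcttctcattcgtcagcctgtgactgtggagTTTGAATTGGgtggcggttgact
MKI67 (chr10:128126424-128126573, minus strand): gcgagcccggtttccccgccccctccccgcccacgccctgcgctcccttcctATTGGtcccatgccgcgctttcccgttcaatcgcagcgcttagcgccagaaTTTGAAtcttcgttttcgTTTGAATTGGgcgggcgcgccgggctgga
NEK2 (chr1:211675622-211675771, minus strand): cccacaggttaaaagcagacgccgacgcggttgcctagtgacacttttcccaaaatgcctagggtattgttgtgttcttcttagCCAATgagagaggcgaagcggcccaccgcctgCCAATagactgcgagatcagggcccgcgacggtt

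In PLK1 and CCNB2 a CCAAT lies upstream of a TTTGAA whose first base is at position -29 from the start, and MKI67 also has one at -29. In CDCA8 and MKI67 the last TTTGAA runs into a reverse CCAAT, so these letters overlap. Over the window from 250 bases before to 50 after the start, 86 of the 102 higher genes were matched to a RefSeq promoter, using 1 start per gene. CCAAT was found on either strand in 67.4% of them, TTTGAA in 60.5% and both in 48.8%. Among 6030 promoters of measured genes the shares were 37.8, 9.87 and 4.49%, and among all 27303 RefSeq promoters used they were 35.7, 15.4 and 6.08%. A TTTGAA within 50 bases of the start was present in 50% of the higher genes and in 3.13% of measured genes. TTCCCGC, letters of E2F sites, was found in 6.98% of the higher genes and 11.6% of measured genes. Of the 35 lower genes 14 were matched, none of them a histone gene, of which 8 held CCAAT and 0 held TTTGAA. Matches of the 2 motifs overlap in 3 promoters of higher genes. A match describes letters in a window and was not tested as a binding site.

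Histone RNA was the largest group on the lower side. Of 17 measured genes in the histone list, which also holds the histone RNA binding protein SLBP, 12 were lower by 1.5-fold or more and 0 higher (median -1.61). The summed level was 1690 CPM in members and 5121 in other cells. Linker and core histones were both among them. The linker histone HIST1H1A (chromosome 6, 26017085 to 26017732) was at 11.03 against 77.2 CPM, 6.997-fold lower (5.69 to 8.69). HIST1H1D was at 126.6 against 748.7, 5.91-fold lower (5.56 to 6.29). HIST1H1E was at 96.6 against 386.9, and HIST1H1B at 45.8 against 213.6. Of the core histones, HIST1H2AM was at 3.24 against 20.6 CPM, 6.35-fold lower (4.35 to 9.67), on 27 UMIs in members. HIST1H4C was at 903.9 against 2769 CPM, 3.06-fold lower (2.99 to 3.14), and HIST2H2AC at 38.5 against 183.1, 4.76-fold lower (4.26 to 5.33). Most replication-dependent histone RNAs end in a stem-loop without a poly(A) tail, and this kit primes on poly(A), so the CPM covers the part of that RNA the kit captured. Members of the H2A, H3 and H4 families are also near-identical, and their single values are uncertain. H1FX, a replication-independent linker histone, was at 210.5 against 181.9 CPM, a value looked up after the pattern was seen.

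The histone difference was present in single cells. At 5000 UMIs per cell, members held a median of 7 UMIs of the histone list (5th to 95th percentile 2 to 24) and other cells 24 (3 to 57). Of the members 44, or 4.84%, lay above the median of the others. The 5th to 95th percentile range of the other cells contains that of the members but for its lowest UMI.

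In the lists of G1 to S and of replication genes, a few genes were lower by 1.5-fold or more, against 0.467% of all measured genes. Of 20 G1 and S cyclins, E2F factors and CDK inhibitors, 4 were lower and 0 higher, with a median of 0.07. CCNE2, cyclin E2 (chromosome 8, 94879770 to 94896678), was at 11.5 against 40.04 CPM, 3.48-fold lower (2.84 to 4.31), and CCNE1 at 5.51 against 11.2. CDKN1A, the p53 target p21 that inhibits CDKs, was at 18.5 against 42.6 CPM, 2.31-fold lower (1.96 to 2.73). CCND1, cyclin D1, was at 629.8 against 602.2 CPM, 1.05 (1.02 to 1.08). Of 42 S phase replication genes 3 were lower and 0 higher, 8 lay above 0 and the median was -0.15. The 3 were UNG, a uracil glycosylase, at 22.3 against 43.3 CPM, CDC6, a licensing factor, at 36.6 against 62.3, and MCM10 at 51.7 against 78.1. PCNA, the sliding clamp, was at 105.6 against 139.5 CPM, 1.32-fold lower (1.23 to 1.42), inside the fold used. UNG and MCM10 were inside 1.5-fold under some settings, with log2 differences as small as -0.25 and -0.20. The 21 genes of DNA damage and homologous recombination held 0 at 1.5-fold, with a median of -0.09. FAM111B, at 6.35 against 22.7 CPM, was 3.57-fold lower (2.72 to 4.79).

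In programmes outside the cell cycle few genes passed 1.5-fold. In p53 targets 1 of 13 was lower by that fold, CDKN1A, and 1 of 13 lay above 0. In the list of AP-1 and immediate-early genes CTGF was lower (8.03 against 14.3 CPM), and in the matrix, actin and YAP list CTGF and ANKRD1 (5.16 against 15.7 CPM) of 24 genes, while IGFBP5, a secreted binder of insulin-like growth factors, was at 10.1 against 21.8. In each of the lists of MHC class I (11 measured), interferon response (6), ATF4 and unfolded protein response (17), glycolysis (20), respiratory chain (39), cholesterol synthesis (9), translation (23), melanocyte lineage (7) and neural crest (15), 0 genes were at 1.5-fold either way. Over all measured genes 1.36% were higher and 0.467% lower by that fold, so 0 in lists this short says little. Medians of these lists ran from -0.15 for interferon response to 0.17 for neural crest genes. Above 0 lay 0 of 6 interferon response genes, 5 of 39 respiratory chain genes and 13 of 15 neural crest genes. These list medians lie inside the 5th to 95th percentile range of all measured genes, -0.25 to 0.32 around a median of 0.02. Whether any list shifted as a set was not tested. Of 20 heat-shock genes 2 were higher, HSPA1A at 73.5 against 43.3 CPM, 1.70 (1.56 to 1.85), and HSPA1B at 37.9 against 23.8. These 2 are near-identical copies, and their single values are uncertain. HSPA8, the constitutive chaperone of that family, was at 1694 against 1246 CPM, 1.36 (1.33 to 1.38).

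The same lists were followed over 10 equal groups of eligible parental cells by rising score, of which group 10 holds the members. The mitotic markers outside the rule went from 1302 CPM in group 1 to 5721 in group 9 and 6616 in group 10, with a higher level in each successive group. Kinesins went from 580.5 to 1619 CPM and condensins from 517.8 to 971.6. ASPM went from 79.5 to 484.1 in group 9 and 609.4 CPM in group 10, so the members lie at the end of a gradient. Subunits of the anaphase-promoting complex stayed between 1063 and 1151 CPM in all 10 groups. The histone list was highest in group 3, at 7025 CPM, and already at 2179 in group 9 against 1690 in group 10. The S phase list was also highest in group 3 (3530 CPM) and lowest in group 10 (2841). CCNE2 had its highest level in group 3 (60.6 CPM) and its lowest in group 10. The p53 targets had another course, highest in group 1 (1455 CPM) and lowest in group 10 (1050), and CDKN1A went from 68.5 CPM in group 1 to 18.5. Group 1 thus differs from groups 2 to 4 in its lower histone and S phase levels.

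**Figure D4:**
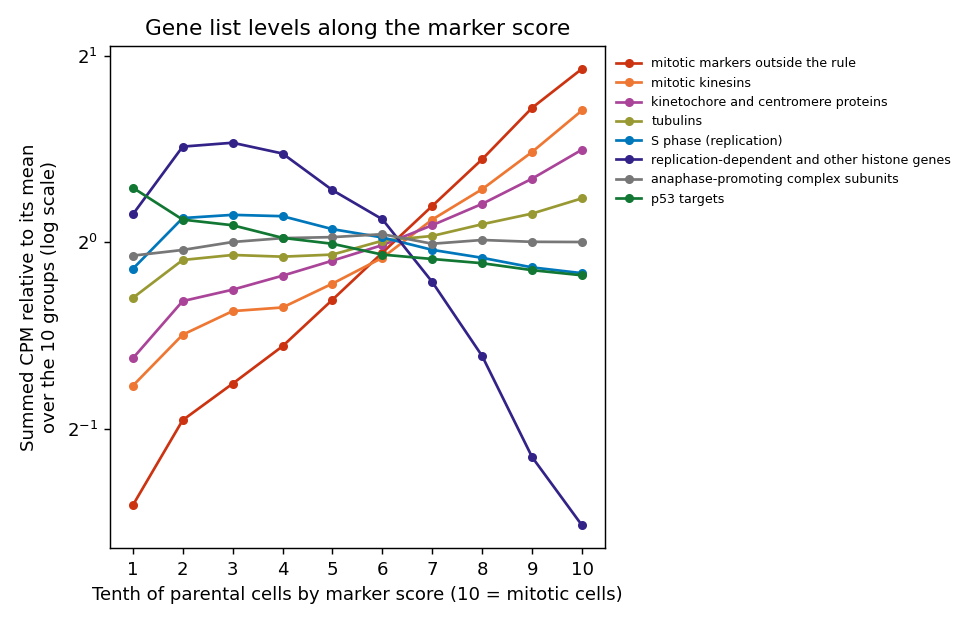
Summed CPM of 8 gene lists relative to each list's mean over the groups (y, log scale) in 10 equal groups of eligible parental cells by rising marker score (x, group 10 = the mitotic cells). Mitotic lists climb to group 10, the histone list peaks at 7025 CPM in group 3 and is lowest in group 10, and the anaphase-promoting complex subunits stay flat.

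Within the members, the upper and lower parts of the score were alike in most genes. The top 5% of cells against ranks 5 to 10% gave 31 of 7495 genes higher (0.414%) and 28 lower (0.374%). ASPM was at 643.9 and 576.9 CPM in these parts, and CENPF at 1241 and 1160. HIST1H4C was at 828.5 and 974.8 CPM, still lower toward the top. HIST1H1C was at 47.7 and 41.2 CPM, on 370 UMIs over all members, so its direction within them is uncertain.

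The parental cells highest in replication genes were compared as another part of the cell cycle. Their median marker score was 6.57, below the 8.92 of the cells outside the members. They are the top 10% by the S phase list, 910 cells, and 16 of them are also members, 1.76% of each set. Leaving members out of both sides, 46 of 7462 genes (0.616%) were at least 1.5-fold higher in the 894 S phase high cells than in the 7290 remaining cells, and 63 (0.844%) lower. Mitotic genes differed in part in these cells. Lower by 1.5-fold or more were 7 of 15 mitotic markers outside the rule (median -0.52), 4 of 14 kinesins, 3 of 35 kinetochore and centromere genes (median 0.07) and 1 of 16 cytokinesis genes. Among the lower genes AURKA was at 65.3 against 154.0 CPM, PIF1 at 10.3 against 51.1 and UBE2C at 208.4 against 536.6. CCNB1 was at 252.7 against 275.2 CPM, CCNB2 at 64.5 against 63.2 and CDC20 at 159.5 against 167.6, all inside 1.5-fold. The histone list summed to 6592 CPM in S phase high cells and 4981 in the rest, against 1690 in members. At 5000 UMIs per cell, the median of mitotic markers outside the rule was 10 in S phase high cells and 33 in members, and the median of histone UMIs 33 and 7. The S phase genes chose these cells, so their own levels there are not a result. S phase high cells were shallower, with a median of 6861 UMIs.

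Few persister cells reached the parental cutoff. Past it were 157 of 5942 eligible persister barcodes, 2.64% (exact interval 2.25 to 3.08%), where the rule fixes 10% in the parental library. The median score was 1.35 in persister and 9.92 in parental cells. The persister cells past the cutoff were deep, with a median of 17890 UMIs against 11825 in the other persister cells. Of the 157, 9 held at least 2 UMIs of T cell markers, against 0 of the 910 members, and their T cell marker sum was 112.8 CPM, so some of these barcodes carry T cell RNA. Without such barcodes the share was 2.56%.

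More genes passed the same fold inside the persister library, on fewer UMIs. The persister cells past the cutoff held 2685843 UMIs, against 8340945 in the parental members, and what counting error adds was not tested. Past the cutoff, 356 of 7378 genes (4.83%) were at least 1.5-fold higher than in other persister cells and 389 (5.27%) lower. Of the 102 genes higher in parental members, 84 were measured there, 84 lay above 0 and 79 were at 1.5-fold, and the median log2 difference of the 84 was 2.29, beside 0.88 for the same genes in the parental library. ASPM was at 848.2 against 90.3 CPM in the persister cells and CENPF at 2110 against 275.3. UBE2C was at 1967 against 216.2. Of 17 histone list genes measured there, 3 were at least 1.5-fold lower past the cutoff and 0 higher, with a median of -0.34, and the list summed to 2330 against 2787 CPM. HIST1H4C was at 1128 CPM past the cutoff and 1289 in other persister cells, and HIST1H1D at 256.2 and 342.5. HIST2H2AC was at 38.4 and 100.2 CPM. HIST1H1A, below the 10 CPM asked of measured genes, was at 1.49 and 8.37, on 4 UMIs past the cutoff. Of the 35 lower parental genes 28 were measured in persister cells, 25 lay below 0 and 14 were at 1.5-fold lower. In other parental cells HIST1H4C was at 2769 CPM, so the 2 comparisons have different reference cells. HSPA1A was at 0.745 and 1.79 CPM in the persister groups, against 73.5 in members. It was below 10 CPM in both persister groups and rests on 2 UMIs past the cutoff. The difference between libraries was not tested, with 1 library each.

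**Figure D5:**
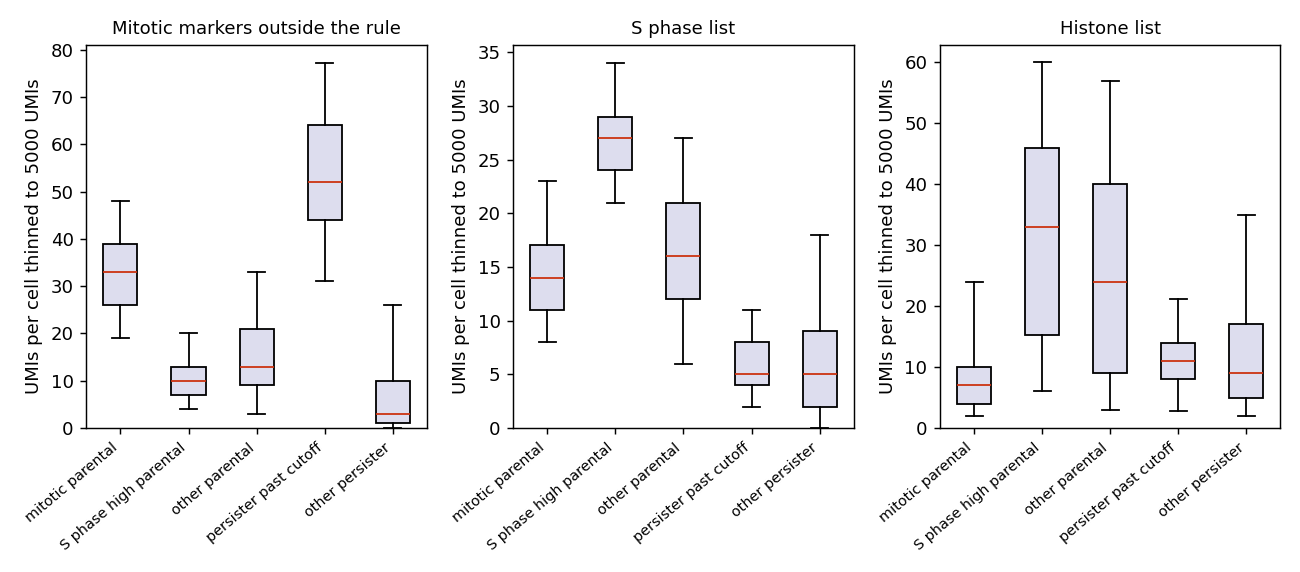
UMIs per cell after thinning each cell to 5000 UMIs (y) for the mitotic markers outside the rule, the S phase list and the histone list in 5 groups of cells (x), with the median as a line, the box from the 25th to the 75th percentile and whiskers at the 5th and 95th. Mitotic parental cells have a median of 33 mitotic and 7 histone UMIs, other parental cells 13 and 24, and persister cells past the cutoff 52 and 11.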

How the data were processed

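UMI counts per gene and barcode from 1 parental and 1 CTL persister library were used as deposited by the authors, unnormalized whole numbers per the file headers. The submitters' processing notes name Cell Ranger 3.1.0 and, as genome build, GRCh38. Gene positions are from GENCODE 29, and which annotation the counting used is not known here. The members held 8340945 UMIs and the other eligible parental cells 74056188. UMIs were summed per group of cells and scaled to CPM. Differences are on log2(CPM + 1) over genes at 10 CPM or more, called at 1.5-fold, and plain ratios are of CPM. Intervals are 95% exact intervals for counting error. Values per cell follow random thinning to 5000 UMIs. With 1 library a group no test between samples exists. No doublet caller was run, and leaving out the deepest 1% of cells stood in for one. Of the entries of 37 gene lists, 1 was not matched.

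The members, gene lists and comparisons were chosen with earlier results of these data known. Named genes are the 15 largest differences in each direction at 20 CPM or more (mitochondrial, ribosomal and clone-named genes not taken by size), up to 3 per list at 10 CPM or more, the 10 markers and 13 fixed genes. WEE1, CDC25C, LCORL, H1FX and SLBP were added after their values were seen. So were the ranking without each marker and the comparisons with cells at or below the median score, without S phase high cells and without persister barcodes holding T cell UMIs. The calculations used Python 3.11.15, numpy 2.4.6, scipy 1.17.1 and pandas 2.3.3 and were tested on simulated data. Alternatives covered the score, depth, mitochondrial share, scaling, pseudocount, minimum level and fold.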

Additional observations from a re-analysis of the deposited data

How the results depend on the processing

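The count of genes lower in mitotic parental cells depended most on the settings. Against 35, the count was 61 with the top 5% of cells, 56 when cells were ranked on a random part of their UMIs and measured on the remainder, 71 with at least 10000 UMIs per barcode, 23 with a pseudocount of 5, 67 with genes at 5 CPM or more, 256 with no minimum and 17 at 2-fold. Against 102, the count of genes higher in mitotic parental cells was 165 with no minimum and 30 at 2-fold. Against the cells at or below the median score, an alternative chosen after seeing the data, 173 genes were higher and 85 lower, and 99 and 35 of these were among the original ones. Under the other settings the counts stayed between 84 and 118 higher and between 30 and 43 lower genes. With at least 10000 UMIs per barcode, 76 of the 110 higher and 27 of the 71 lower genes were among the original ones. The share of persister cells past the parental cutoff, 2.64% as reported, was 1.73% with the cutoff of the top 5%, 4.21% with the top 20%, 3.11% with every cell thinned to 5000 UMIs, 3.097% without KPNA2 in the score and 3.15% at 10000 UMIs or more. No count or named gene reversed. Of the named genes past 1.5-fold, MCM10 stayed past it in 9 of 14 settings, HSPA1B in 11, CTGF in 12 and NCAPG, IGFBP5 and UNG in 13. No paired analysis was possible because each group is 1 library, and leaving out a replicate was not possible for the same reason. Depth limits single low genes: HIST1H2AM rests on 27 UMIs in members.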

Other observations

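Of the higher genes, 35 lie outside the gene lists. KDM5B, a histone demethylase, was at 60.3 against 38.1 CPM in members, KMT5A, the H4K20 methyltransferase, at 114.6 against 75.6, and DBF4, the activator of the replication kinase CDC7, at 223.1 against 139.5. TNFAIP8L1 was at 26.3 against 10.1 CPM, 2.60-fold higher. BRD8, at 82.1 against 46.5 CPM, overlaps the marker KIF20A in the annotation, which makes its value uncertain. On the lower side, the secreted factor IL24 was at 6.47 against 11.9 CPM and IGFBP3 at 18.9 against 29.3. These genes were picked after their values were seen.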
